A study of Mus musculus with 6 samples.

Results

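The genes for translation initiation and elongation factors were taken by name, as all protein-coding genes of GENCODE M21 on mm10 whose symbols start with Eif or Eef. This rule found 69 of 21938 protein-coding genes, 55 of them Eif and 14 Eef genes. The name also takes in proteins that are not subunits of a factor. These were 17 genes, namely 4 eIF2alpha kinases, 4 proteins that bind eIF4E, 6 enzymes that modify elongation factors, and *Eif1ad*, *Eif4a3* and *Eef1e1*. The other 52 genes encode factors or their subunits. The measurement was 1 merged set of 11106 H3K56ac peaks, the regions in which histone H3 acetylated at lysine 56 was enriched by ChIP-seq.

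The cells were V6.5, an undifferentiated mouse embryonic stem cell (mESC) line kept on feeder cells with LIF. They were infected with lentivirus carrying either a scrambled shRNA (Scramble) or an shRNA against *Sirt6* (Sirt6KD), the gene of a deacetylase of this residue. Each group had 2 H3K56ac libraries and 1 input DNA library, 6 libraries in all, and the study calls the H3K56ac libraries biological replicates. The merged set does not say which library a peak came from or how strong it was. No value by library or group can therefore be given, and Scramble and Sirt6KD could not be compared at these genes. The study lists more peaks for each Sirt6KD library than for either Scramble library, so some merged peaks may be present in Sirt6KD only. A peak at a gene is therefore not known to be present in Scramble cells.

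A peak base lay within 1 kb of a transcription start site (TSS) of 10 of 10 pluripotency genes looked up as a check of the cell line, among them *Pou5f1*, *Sox2* and *Nanog*. None of 7 fibroblast genes looked up for the feeder cells, such as *Col1a1* and *Thy1*, had a peak base there. Of all protein-coding genes, 35.7% did. By the midpoint of the peak, the stricter measure used for promoter peaks below, only 5 of the 10 pluripotency genes passed. *Pou5f1* and *Nanog* were among these and *Sox2* was not. No fibroblast gene passed.

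Translation begins when eIF2, carrying GTP and the initiator tRNA, joins the small ribosomal subunit together with eIF1, eIF1A, eIF3 and eIF5. The eIF4F complex of eIF4E, eIF4G and eIF4A then brings the capped mRNA to it. In elongation, eEF1A delivers aminoacyl-tRNA, the eEF1B complex recharges eEF1A with GTP, and eEF2 moves the ribosome along the mRNA. Phosphorylation of eIF2alpha blocks its recharging by eIF2B and lowers initiation, and the 4E-binding proteins keep eIF4E from eIF4G. Most of these genes are expressed in every cell type and start in CpG islands, while a few have copies used in particular tissues, such as *Eef1a2* in muscle and neurons.

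A gene was counted as having a promoter peak when the midpoint of a peak lay within 1 kb of any of its annotated TSS. To show what the starts of related genes looked like, the 150 bases before the RefSeq start are printed 5′ to 3′ with each CpG in capitals. The sequences are from RefSeq on GRCm38.p6, in which 53 of the 69 genes had an entry. The genes are *Eef1a1* and *Eef1a2* (the copies of eEF1A), *Eif5a* and *Eif5a2* (the copies of eIF5A), *Eif2s3x* and *Eif2s3y* (the X- and Y-linked copies of eIF2gamma), and *Eef2*. In each pair the gene printed on top had a promoter peak and the other had none, and *Eef2* had none.
Eef1a1: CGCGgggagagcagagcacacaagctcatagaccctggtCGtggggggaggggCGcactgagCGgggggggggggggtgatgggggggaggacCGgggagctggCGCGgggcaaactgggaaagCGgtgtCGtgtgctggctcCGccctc
Eef1a2: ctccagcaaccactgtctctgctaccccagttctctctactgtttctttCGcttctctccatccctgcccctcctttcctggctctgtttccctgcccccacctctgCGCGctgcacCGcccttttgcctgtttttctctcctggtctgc
Eif5a: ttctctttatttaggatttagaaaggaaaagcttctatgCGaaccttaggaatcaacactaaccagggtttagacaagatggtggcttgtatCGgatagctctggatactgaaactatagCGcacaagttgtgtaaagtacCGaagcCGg
Eif5a2: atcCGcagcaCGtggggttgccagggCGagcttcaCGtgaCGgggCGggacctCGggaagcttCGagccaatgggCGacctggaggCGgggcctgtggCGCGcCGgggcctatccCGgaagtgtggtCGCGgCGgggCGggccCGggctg
Eif2s3x: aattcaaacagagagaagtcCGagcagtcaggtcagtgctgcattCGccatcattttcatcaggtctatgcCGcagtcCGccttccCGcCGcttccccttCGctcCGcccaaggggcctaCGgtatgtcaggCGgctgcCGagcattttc
Eif2s3y: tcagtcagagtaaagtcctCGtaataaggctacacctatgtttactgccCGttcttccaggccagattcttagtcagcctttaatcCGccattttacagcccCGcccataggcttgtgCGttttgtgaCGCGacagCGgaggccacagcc
Eef2: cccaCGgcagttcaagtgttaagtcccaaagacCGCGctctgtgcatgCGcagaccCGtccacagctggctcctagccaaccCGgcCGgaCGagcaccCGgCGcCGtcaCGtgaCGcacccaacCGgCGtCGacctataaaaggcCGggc

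The genes and printed sequences of *Eef1a1* (chr9:78481725-78481874), *Eef1a2* (chr2:181157016-181157165), *Eif5a* (chr11:69921959-69922108) and *Eif2s3x* (chrX:94212652-94212801) lie on the minus strand. Those of *Eif5a2* (chr3:28781127-28781276), *Eif2s3y* (chrY:1010445-1010594) and *Eef2* (chr10:81176481-81176630) lie on the plus strand. The 150 bases held 11 CpGs for *Eef1a1* and 4 for *Eef1a2*, 11 for *Eif2s3x* and 8 for *Eif2s3y*, but 5 for *Eif5a* and 19 for *Eif5a2*. Over the longer window of 500 bp on either side of the outermost 5′ end, observed/expected CpG ratios were closer. They were 0.492 for *Eef1a1* and 0.535 for *Eef1a2*, 0.755 for *Eif2s3x* and 0.767 for *Eif2s3y*, and 0.812 for *Eif5a* and 0.8 for *Eif5a2*. By these measures, the copy with the peak had more CpGs in the 150 bases in the eEF1A and eIF2gamma pairs but not the higher ratio. The eIF5A pair showed the opposite in both measures. For *Eef1a1* the outermost 5′ end is not the start before which its bases are printed. At the TSS nearest to the peak the ratio was 0.566 for *Eef1a1*, above that of *Eef1a2*. It was 0.712 there for *Eif2s3x* and 1.104 for *Eif5a*. *Eef2*, with no promoter peak, had 17 CpGs in the 150 bases.

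A promoter peak was found at 53 of the 69 genes (76.8%, Wilson 95% interval 65.6 to 85.19%), compared with 33.9% of all protein-coding genes. The 53 genes had 53 distinct peaks. The share was 78.2% for the Eif genes (43 of 55) and 71.4% for the Eef genes (10 of 14). Factors and their subunits had a promoter peak at 42 of 52 genes (80.8%, 68.1 to 89.2%), and the other 17 proteins at 11 (64.7%, 41.3 to 82.69%), intervals that overlap. A peak covered a TSS of 43 genes (62.3%), compared with 25% of all genes, and any base of a peak lay within 1 kb of a TSS of 55 (79.7%), compared with 35.7%. Intervals on shares cover counting error only, and the number of reads behind a peak is not given by these positions.

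CpG-rich starts carried a peak more often over all genes. Most Eif and Eef genes, 61 of 69, were CpG-rich, with an observed/expected CpG ratio over 0.6 in the 500 bp on either side of the outermost 5′ end. Among these, 48 had a promoter peak (78.7%, 66.88 to 87.1%), against 57.6% among the 10083 CpG-rich genes of the genome. In the band from 0.8 to 0.9, which held 22 of the genes, 17 had a peak (77.3%), compared with 62.6% of all genes in that band. Of the 8 genes below the limit, 5 had a peak (62.5%, 30.57 to 86.32%), namely *Eef1a1*, *Eef1akmt2*, *Eif2ak2*, *Eif2d* and *Eif4g1*, compared with 13.7% of such genes. The outermost 5′ end is not always the TSS nearest to the peak. *Eif4g1* had a ratio of 0.197 there, but 0.858 at the TSS nearest to its peak.

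**Figure D1:**
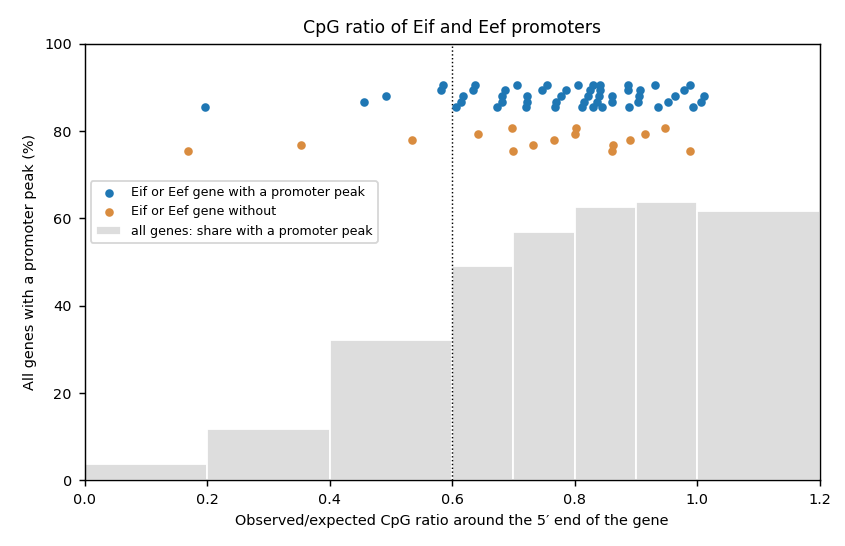
Each point is an Eif or Eef gene placed by its observed/expected CpG ratio (x axis, no unit) around the outermost 5′ end, in the upper row if it had a promoter peak and in the lower if not (height within a row has no meaning). Grey bars give the percent of all protein-coding genes with a promoter peak in each band of the ratio (y axis), from 3.67% below 0.2 to 63.7% between 0.9 and 1. Both rows lie mostly to the right of the dotted limit of 0.6, where 48 of 61 genes had a peak.

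Genes with more annotated TSS have more places for a midpoint to fall near, and the Eif and Eef genes had a median of 4 TSS, compared with 3 over all genes. Of those with 1 to 2 TSS, 8 of 14 carried a promoter peak (57.1%), against 15.4% over the genome. With 3 to 5 it was 24 of 30 (80%) against 37.9%, and with 6 or more 21 of 25 (84%) against 56.5%. The share was thus above that of all genes in each of these classes. Among the CpG-rich genes of the genome the shares were 43.2%, 57.8% and 66.7%. The Wilson intervals of the Eif and Eef genes were 32.59 to 78.62%, 62.69 to 90.49% and 65.35 to 93.6%. The first and last of these intervals contain the CpG-rich share.

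Where a promoter peak was present, the median width was larger than over all genes, though its interval just contained the median of all genes. The median width was 1911 bp (95% order-statistic interval 1273 to 2462 bp, quartiles 1023 and 2650 bp, n = 53 genes), compared with 1274 bp (quartiles 738 and 2108 bp) over all 7429 genes with a promoter peak. A width of 3 kb or more was found at 12 genes (22.6%, 13.45 to 35.53%), compared with 7.61% of all genes with a promoter peak. These were *Eef1a1*, *Eef1g*, *Eef1b2*, *Eif5a*, *Eif3a*, *Eif5*, *Eif4a1*, *Eif5b*, *Eif1a*, *Eif4g2*, *Eif4a2* and *Eif4b*, all of them factors or subunits. At the 53 genes with a promoter peak, a median of 81.7% of the 2 kb around the outermost 5′ end was covered by peaks, compared with 49.0% over all genes with a promoter peak. The GC content of the 53 peaks had a median of 52.9%, compared with 53.1%.

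The widest promoter peak belonged to *Eef1a1* (ENSMUSG00000037742.14), the ubiquitous eEF1A, and measured 5388 bp (chr9:78477697-78483084). It contained the 150 bases printed above for this gene, and its midpoint lay in an exon. *Eef1g* (the gamma subunit of eEF1B, chr19:8965928-8970007) followed with 4080 bp. *Eef1b2* (a subunit that exchanges GDP for GTP on eEF1A, chr1:63175377-63179064) was next with 3688 bp, in a peak that also covered a TSS of *Ndufs1*. The 3 widest promoter peaks were thus at genes of eEF1A or of its exchange complex, although peaks of 5275 and 4974 bp over a TSS of *Eif2s2* and *Eif4ebp1* had midpoints beyond 1 kb. The narrowest were those of *Eif4g3* (a paralogue of the eIF4F scaffold, chr4:137993000-137993412) with 413 bp, *Eif1b* (a copy of the start codon selection factor eIF1, chr9:120491873-120492393) with 521 bp, and *Eefsec* (which brings selenocysteine tRNA to the ribosome, chr6:88445261-88445856) with 596 bp.

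**Figure D2:**
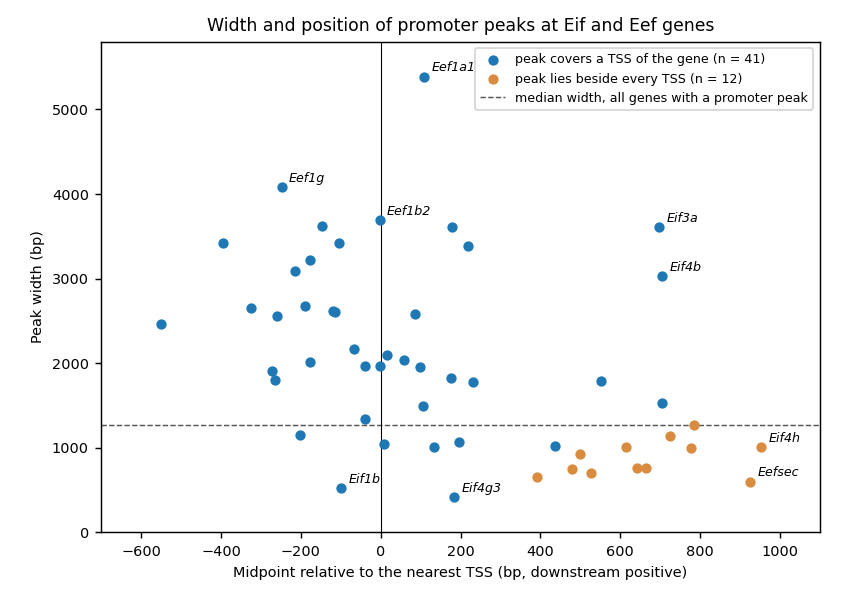
Width of the promoter peak in bp (y axis, linear) against the position of its midpoint from the nearest TSS in bp, downstream positive (x axis), for the 53 genes, with the median of all genes, 1274 bp, as a dashed line. Blue points (41) are peaks that cover a TSS of the gene and orange points (12) lie beside every TSS, all of them to the right of 0 and none wider than 1273 bp.

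Midpoints lay a median of 99 bp downstream of the nearest TSS (interval -40 to 217.5 bp, range -551.5 to 953.5 bp), compared with 85.5 bp over all genes. They were downstream at 31 of 53 genes (58.5%), compared with 61.3%. By the annotation of the gene itself, 22 midpoints were in an intron, 19 in an exon and 12 outside the gene. The peak covered a TSS at 41 genes (77.4%), with a median width of 2102 bp. At the other 12 (22.6%, against 27.7% of all genes with a promoter peak), it lay beside every TSS and had a median width of 843 bp. All 12 of these peaks were downstream, compared with 1319 of 2058 such genes overall (64.1%). The gap from the TSS to the edge of the peak had a median of 168.5 bp and ran from 38 bp (*Eif3m*) to 628 bp (*Eefsec*). The other genes of this kind were *Eif1ax*, *Eif2b3*, *Eif3c*, *Eif3e*, *Eif3f*, *Eif3g*, *Eif3l*, *Eif4h*, *Eif4ebp2* and *Eef2kmt*.

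**Figure D3:**
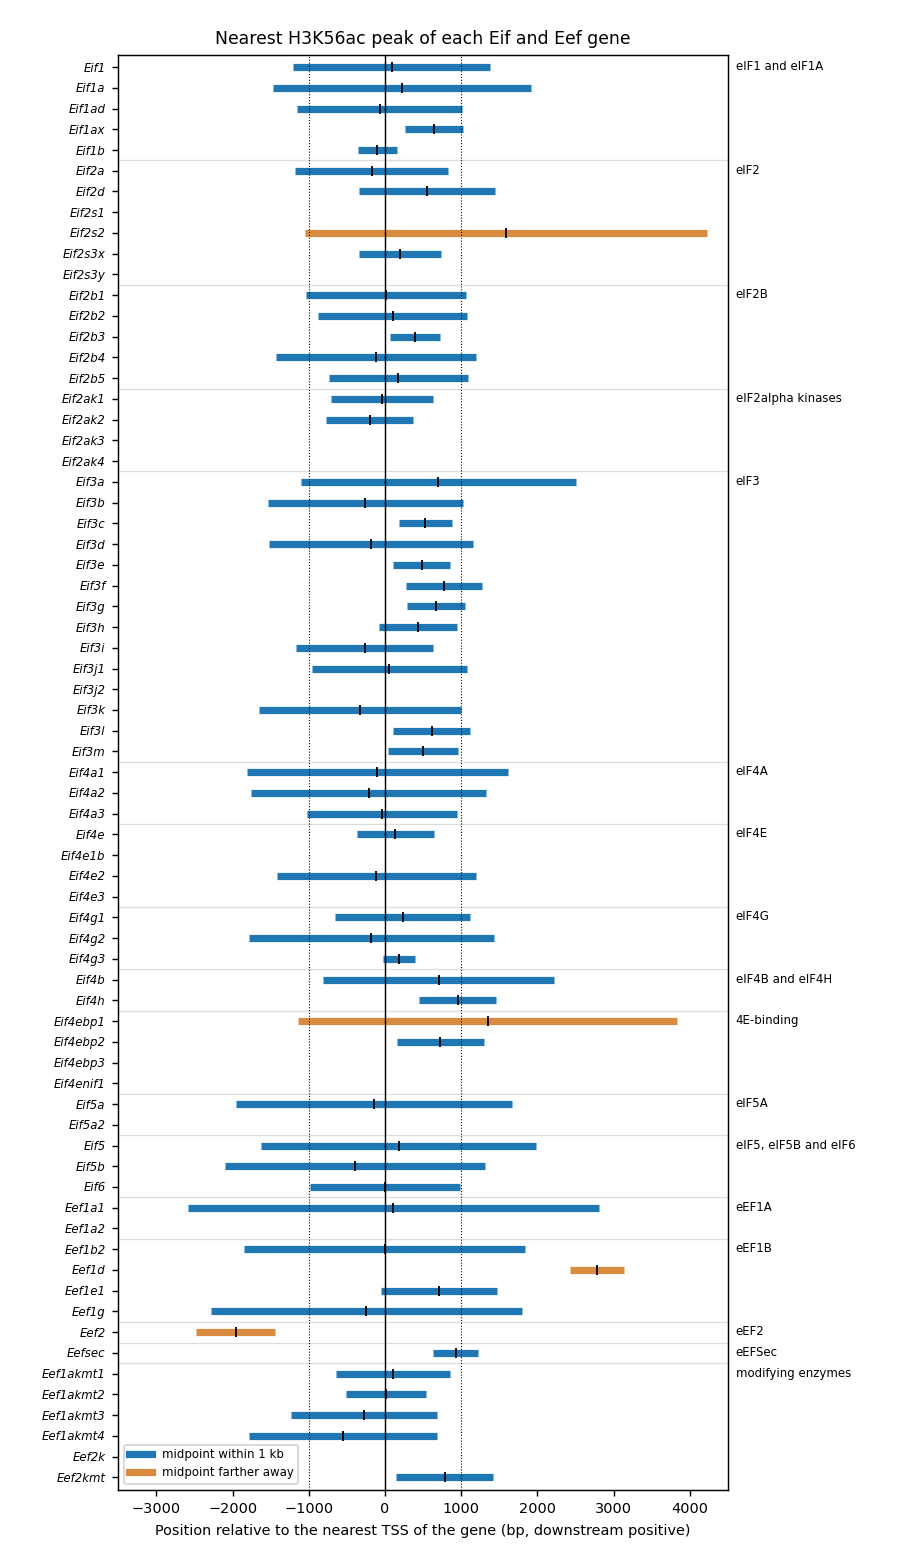
The nearest H3K56ac peak of each of the 69 genes, drawn to scale as a bar from its start to its end relative to the nearest TSS of the gene (x axis, bp, downstream positive) with a tick at its midpoint, and grouped by complex. Blue bars are the 53 promoter peaks, orange bars have a midpoint farther than 1 kb (dotted lines), and 12 genes without a bar had no peak in the range drawn. Several eIF3 bars start to the right of 0.

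The eIF1 and eIF1A group, which serves start codon selection, carried a peak at all 5 genes, including both copies of eIF1 (*Eif1*, 2580 bp; *Eif1b*, 521 bp) and both of eIF1A. The X-linked *Eif1ax* had a 758-bp peak that began 263 bp downstream of its only annotated TSS. On chromosome 18, *Eif1a* had a peak of 3386 bp over its TSS. *Eif1ad*, which is named after an eIF1A domain, had one of 2164 bp.

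The eIF2 genes were split. The alpha and beta subunits *Eif2s1* and *Eif2s2* had no promoter peak, and neither had *Eif2s3y*. The gamma subunit *Eif2s3x*, on the X chromosome, had a peak of 1067 bp (chrX:94211923-94212989) with its midpoint 195 bp downstream of a TSS. Both X-linked genes of the family, *Eif1ax* and *Eif2s3x*, thus had a peak (Wilson interval 34.2 to 100%), on a chromosome where 14.3% of all genes did. A share for the Y chromosome, which carries *Eif2s3y*, is not given here. *Eif2a* and *Eif2d*, which can deliver initiator tRNA without being eIF2 subunits, had peaks of 2009 and 1788 bp.

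The alpha and beta subunits differed in what lay near them. For *Eif2s2* a peak of 5275 bp (chr2:154888561-154893835) covered the TSS, but its midpoint was 1584 bp downstream, which is why it was not counted. For *Eif2s1* the nearest midpoint was 112724 bp upstream, although its CpG ratio was 0.862.

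All 5 subunits of eIF2B, the exchange factor that recharges eIF2, had a promoter peak. Their widths were 2102 bp (*Eif2b1*), 1951 bp (*Eif2b2*), 650 bp (*Eif2b3*), 2618 bp (*Eif2b4*) and 1819 bp (*Eif2b5*), and only that of *Eif2b3* did not cover a TSS. The midpoints lay between -120.5 and 392.5 bp. Of the 4 kinases that phosphorylate eIF2alpha, *Eif2ak1* (HRI, which responds to heme shortage) had a peak of 1339 bp and *Eif2ak2* (PKR, which responds to double-stranded RNA) one of 1145 bp. *Eif2ak3* (PERK, the kinase of endoplasmic reticulum stress) and *Eif2ak4* (GCN2, which responds to amino acid shortage) had none, and the nearest midpoints were 369898 and 141648 bp away. The CpG ratio did not follow this split, being 0.806 and 0.457 for the kinases with a peak and 0.989 and 0.642 for those without. In the 150 bases before the RefSeq start, *Eif2ak1* had 9 CpGs and each of the other kinases 11.

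eIF3, the scaffold that holds the initiation complex on the small subunit, was the largest group. A promoter peak was present at 13 of its 14 genes, all but *Eif3j2*. The median width of the 13 peaks was 1023 bp, below the 1274 bp over all genes with a promoter peak. The 7 that covered a TSS had widths of 1023 to 3607 bp with a median of 2556 bp, at *Eif3a*, *Eif3b*, *Eif3d*, *Eif3h*, *Eif3i*, *Eif3j1* and *Eif3k*. The 6 beside it, at *Eif3c*, *Eif3e*, *Eif3f*, *Eif3g*, *Eif3l* and *Eif3m*, were 696 to 1013 bp wide. The ranges nearly met, since the 1023-bp peak of *Eif3h* covered a TSS and the 1013-bp peak of *Eif3l* did not. Over all genes with a promoter peak, those covering a TSS also had the larger median width, 1753 bp compared with 651 bp. The midpoints of the 6 eIF3 peaks beside the TSS lay 478.5 to 777 bp downstream. These peaks made up 6 of 13 eIF3 peaks (46.2%), compared with 6 of 40 (15%) at the other Eif and Eef genes and 27.7% of all genes with a promoter peak.

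Every eIF4A and eIF4G gene had a promoter peak. The eIF4A helicases *Eif4a1* and *Eif4a2* had peaks of 3424 and 3091 bp, and *Eif4a3*, a part of the exon junction complex rather than of eIF4F, one of 1963 bp. Among the eIF4G genes, widths were 1774 bp (*Eif4g1*), 3223 bp (*Eif4g2*) and 413 bp (*Eif4g3*). The eIF4G genes thus held a peak over 3 kb and the narrowest of all 53. *Eif4b* and *Eif4h*, which encode helpers of the helicase, had peaks of 3031 and 1004 bp.

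The cap-binding genes and their inhibitors differed among themselves. *Eif4e*, the main cap-binding factor, had a peak of 1006 bp (chr3:138526056-138527061), and *Eif4e2*, a cap-binding relative tied to repression, one of 2607 bp (chr1:87212868-87215474). *Eif4e2* also had peaks of 1652 and 2820 bp farther inside the gene. *Eif4e1b*, an oocyte form, and *Eif4e3* had no promoter peak, with the nearest midpoints 90442 and 124524 bp upstream. *Eif4e1b* had the lowest CpG ratio of the 69 genes, 0.169, while that of *Eif4e3* was 0.699.

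Of the 4E-binding genes only *Eif4ebp2* had a promoter peak (1135 bp, chr10:61451366-61452500), lying beside the TSS. *Eif4ebp1* missed the limit by its midpoint alone. Its peak was 4974 bp wide (chr8:27259191-27264164) and covered the TSS, with the midpoint 1348.5 bp downstream. *Eif4ebp3* and *Eif4enif1*, the latter a carrier of eIF4E into the nucleus, had no peak base within 1 kb. Their nearest midpoints were 6070.5 and 30055.5 bp downstream.

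The factors of subunit joining had wide peaks over the TSS, of 3607 bp at *Eif5* (which activates the GTPase of eIF2), 3415 bp at *Eif5b* (the joining GTPase) and 1961 bp at *Eif6* (which keeps the subunits apart). For *Eif5b* the midpoint was 2 bp from a TSS of *Txndc9* and -396 bp from its own. *Eif5a*, the hypusine-carrying factor, had a peak of 3625 bp (chr11:69919721-69923345). *Eif5a2* had none, the nearest midpoint being 24815.5 bp away near the TSS of *Rpl22l1*.

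In the elongation group *Eef1a1* and the eEF1B subunits *Eef1b2* and *Eef1g* had a promoter peak. *Eef1e1*, not a subunit but a partner of the tRNA synthetase complex, had one of 1524 bp. *Eef1a2*, the copy of muscle and neurons, had none, with the nearest midpoint at -44713 bp. For *Eef1d*, the delta subunit, the nearest midpoint was that of a 706-bp peak, 2781.5 bp downstream of its nearest TSS and 331.5 bp from a TSS of *Naprt*. That midpoint lay beyond the 3′ end of *Eef1d*, 15597.5 bp downstream of its outermost 5′ end. *Eef2* was the only translocase gene and had no promoter peak. Its nearest peak (1035 bp, chr10:81174156-81175190) ended 1441 bp upstream of the TSS, with the midpoint at -1958 bp. Among the enzymes, all 4 lysine methyltransferases of eEF1A (*Eef1akmt1* to *Eef1akmt4*) and the eEF2 methyltransferase *Eef2kmt* had a peak, of 1047 to 2462 bp. *Eef2k*, the kinase that switches off eEF2, had none, with the nearest midpoint 26526 bp away.

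For 48 of the 53 genes with a promoter peak no TSS of another protein-coding gene was nearer to the midpoint. Some of these peaks still covered a TSS of another gene and so are not particular to the Eif or Eef gene either. Examples are those of *Eif1ad* (*Banf1* at 86.5 bp), *Eif2b1* (*Gtf2h3* at 162.5 bp) and *Eef1b2* (*Ndufs1* at 387.5 bp). At the other 5 a neighbour was nearer, so that these peaks cannot be given to the Eif or Eef gene alone. They were *Eif5b*, *Eif3i* (*Tmem234* at 69.5 bp, its own TSS at -265.5 bp), *Eif3k* (*Map4k1* at 139.5 bp, own at -325.5 bp), *Eef1akmt3* (*Mettl1* at 146 bp, own at -273 bp) and *Eef1akmt4* (*Alg3* at 273.5 bp, own at -551.5 bp). In each the midpoint was upstream of the Eif or Eef gene. Without them 48 of 69 genes had a promoter peak (69.6%), compared with 29.5% of all genes under the same condition.

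The limit of 1 kb divided *Eif4h*, at 953.5 bp, and *Eefsec*, at 925.5 bp, from *Eif4ebp1*, at 1348.5 bp, and *Eif2s2*, at 1584 bp. The 16 genes without a promoter peak therefore fell into 3 kinds. *Eif4ebp1* and *Eif2s2* had wide peaks over the TSS. *Eef2*, *Eef1d* and *Eif4ebp3* had their nearest peak base 1 to 10 kb from a TSS. The other 11 had none within 10 kb, and for 6 of these it was over 100 kb away (*Eif2s1*, *Eif2s3y*, *Eif2ak3*, *Eif2ak4*, *Eif3j2* and *Eif4e3*). Of the 16, 13 were CpG-rich, with ratios from 0.642 (*Eif2ak4*) to 0.989 (*Eif2ak3*). Among them, *Eif4enif1* had 0.947, *Eef1d* 0.916, *Eif2s2* 0.891, *Eef2* 0.862, *Eif3j2* 0.802 and *Eif5a2* 0.8. *Eif2s3y* had 0.767, *Eef2k* 0.732 and *Eif4ebp1* 0.698. High CpG content was thus also found at genes without a promoter peak, though wide peaks covered a TSS of *Eif2s2* and *Eif4ebp1*. Over the 16 genes the median CpG ratio was 0.784 compared with 0.816 at the genes with a peak. Over all genes these medians were 0.329 without and 0.75 with a promoter peak.

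Paralogues were compared in the 12 sets of which at least 2 members were annotated. In 4 sets every member had a promoter peak, namely *Eif1* with *Eif1b*, *Eif1a* with *Eif1ax*, *Eif4a1* with *Eif4a2*, and the eIF4G genes. In the other 8, some members had a peak and others had none. Besides the eIF2alpha kinases, the cap-binding genes and the 4E-binding proteins, these were 5 pairs, with *Eef1a1*, *Eef1b2*, *Eif5a*, *Eif2s3x* and *Eif3j1* carrying the peak. The copies without were *Eef1a2*, *Eef1d*, *Eif5a2*, *Eif2s3y* and *Eif3j2*. For *Eif2s3y* the nearest midpoint was 222502 bp away. *Eif3j1* had a peak of 2038 bp (chr2:122027691-122029728), and the nearest midpoint to *Eif3j2* was 902266 bp upstream. *Eif4ebp1* was counted as having none, although a peak covered its TSS. Of the 69 genes, 16 had no promoter peak, so mixed sets could be found in any grouping of these genes. Whether paralogues differed more often than other Eif and Eef genes was not tested.

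Reads that match several places were dropped before peaks were called, so the share of 75-base stretches with a copy elsewhere was taken over the 2 kb around each 5′ end. It was 0 for 49 of the 69 genes and above 10% for *Eif3j2* (21.6%) and *Eif4g1* (11.0%). It was 0 for *Eef1a2* and *Eif5a2* and 0.0519% for *Eif2s3y*, which had no promoter peak either. Only exact copies on the assembled chromosomes were counted, so a low share does not show that every read there could be placed uniquely.

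*Eef1a1* had peaks at separate starts. A peak of 829 bp (chr9:78488371-78489199) covered its outermost 5′ end, with the midpoint 366 bp downstream. The 5388-bp peak, counted because its midpoint was nearest to any TSS of the gene, lay 8760.5 bp downstream of that end. The counted peak of *Eif4g1* likewise had its midpoint 4742.5 bp downstream of the outermost 5′ end, and 0% of the 2 kb around that end was covered. A few genes held peaks away from the start. *Eif4a2* had a peak of 542 bp inside the gene and one of 1134 bp upstream, *Eif2b3* an intragenic peak of 506 bp, and *Eif4g3* one of 331 bp. A peak of 3778 bp outside *Eif2d* had its midpoint at -5327.5 bp from the 5′ end. Of the 69 genes, 51 had 1 peak in the gene body, 4 had 2, and *Eif4e2* had 3.

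Short motifs of known promoter factors were counted on both strands in the 250 bases before and 50 after the outermost 5′ end. CCGGAA, the core of ETS factor sites, was present at 26 of the 69 genes (37.7%), compared with 17.5% of all genes and 28.8% of CpG-rich genes. It was found at 23 of the 53 genes with a promoter peak (43.4%) and 3 of the 16 without (18.8%). Over all genes these shares were 32.6% and 9.75%. GGGCGG, the GC box, was present at 50 genes (72.5%), close to the 70.2% of CpG-rich genes. TATAAA was present at 5 genes (7.25%, compared with 12.6% of all genes and 6.3% of CpG-rich genes), namely *Eef2*, *Eif2s3y*, *Eif3b*, *Eif3f* and *Eif3j2*, of which *Eif3b* and *Eif3f* had a promoter peak. In *Eef2* it can be read near the end of the sequence printed above.

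CCAAT was present at 21 genes (30.4%, compared with 39% of all and 38% of CpG-rich genes). The E-box CACGTG was present at 9 (13%, compared with 7.75% of all and 11.1% of CpG-rich genes). AAGATGGC, which is part of the YY1 site, was found at *Eif3e*, *Eif3f*, *Eif4a1* and *Eif4a3* (5.8%, compared with 2.92% of all and 4.71% of CpG-rich genes). ACTACAAT (THAP11) and GCGCATGC (NRF1) were each found at 2 genes (2.9%), compared with 0.834% and 3.71% of all genes. TGACGTCA (the cAMP response element) was found at *Eef2* alone (1.45%, compared with 2.43%). These matches describe the letters in the window and were not tested as binding sites.

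Other genes of translation were counted in the same way. A promoter peak was present at 20 of 20 cytosolic tRNA synthetase genes (100%, 83.89 to 100%) and 9 of 9 mitochondrial translation factor genes. It was present at 6 of 7 genes listed under termination and recycling (all but *Gspt2*) and at 65 of 76 cytosolic ribosomal protein genes (85.5%, 75.91 to 91.72%). The termination list included *Abcf1*, which is also counted among the regulators of initiation below. Of the enzymes that make hypusine on eIF5A or diphthamide on eEF2, 7 of 9 had one (not *Dnajc24* and *Dohh*), as did 4 of 5 partners of eEFSec in selenocysteine synthesis (not *Sephs2*). Regulators of initiation and related genes not named after a factor had one at 14 of 20 genes (70%), the others being *Atf4*, *Mknk2*, *Paip1*, *Pdcd4*, *Rps6kb2* and *Rptor*. The median width of 1911 bp at the Eif and Eef genes lay between those of the ribosomal protein genes (3013 bp) and the mitochondrial factors (1060 bp), and near that of the tRNA synthetases (1847 bp). These lists were compared by their counts, and no test of a difference between them was made.

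**Figure D4:**
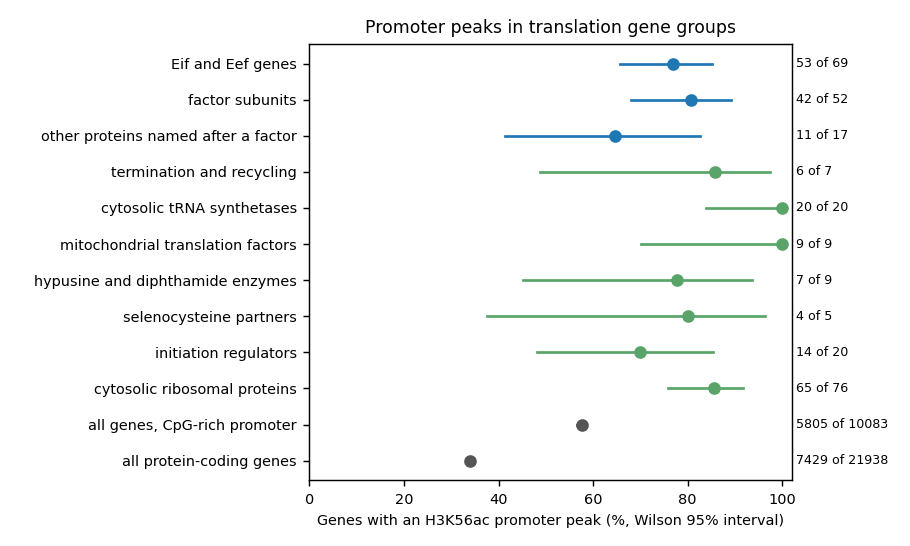
Percent of genes with an H3K56ac promoter peak (x axis) in the Eif and Eef genes (blue), in other translation gene lists (green) and over all protein-coding genes (grey), with Wilson 95% intervals as lines (narrow for grey) and the counts at the right. The Eif and Eef genes lie at 76.8%, to the right of both grey points at 57.6 and 33.9%, and the interval of every green list overlaps that of the Eif and Eef genes.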

How the data were processed

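H3K56ac ChIP-seq of V6.5 mESCs was analysed from 1 deposited set of merged peaks. Per the methods, the authors used Trim Galore for trimming and bowtie for alignment to mm10, so that only uniquely placed reads remained. Picard took out duplicates and MACS2 called the peaks. Regions on the ENCODE blacklist were then discarded, and GenomicRanges joined peaks that overlapped. Merging removes the origin and height of each peak, and dropping reads with several locations can leave duplicated sequence without a peak. The deposited values used were start and end positions in bases, counted from 0 and printed from 1. The name, score and strand columns were constant. The file holds no reads. The study lists read numbers for each library, which were not used here because a merged peak cannot be tied to a library.

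TSS were the starts of all GENCODE M21 transcripts of 21938 protein-coding genes on GRCm38. The offset is the distance from the nearest TSS of a gene to a peak midpoint, downstream positive. No chance test was made. Shares have Wilson 95% intervals and medians binomial order-statistic intervals, over genes, which are not replicates. Genes sharing a promoter are not independent. Alternatives covered the TSS set, the distance limit, use of midpoint or edge, peak width, and subsets of the genes. The search was checked on simulated peaks.

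The genes, gene lists, motifs and paralogue sets were chosen with earlier results of these data known. All genes of the family are accounted for by complex. Values in full were to be given for paralogue sets whose members differ, the 3 widest and 3 narrowest peaks, the genes just inside and outside 1 kb, CpG-rich genes without a promoter peak, and peaks nearer to another gene's TSS. The marker genes, the share of all genes without a nearer neighbour and the count of eIF3 peaks beside the TSS were added after the data were seen. Python 3.11.15 was used with numpy 2.4.6, scipy 1.17.1, pandas 2.3.3, numba 0.67.0 and matplotlib 3.10.9.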

Additional observations from a re-analysis of the deposited data

How the results depend on the processing

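Of 55 values recomputed under alternatives for 5 results, 48 stayed inside the interval of the reported value (for the paralogue sets, within 1.5 times), 7 moved and 0 changed sign beyond it. The share of Eif and Eef genes with a promoter peak moved from 76.8% to 55.1% with midpoints within 500 bp (25.8% of all genes), to 62.3% where the peak had to cover a TSS (25%) and to 65.2% with only peaks wider than the median of 913.5 bp (21.9%). Among CpG-rich genes these values were 55.7%, 62.3% and 65.6%. The median offset moved from 99 to 395.5 bp when only the outermost 5′ end of each gene was used. The construction of each alternative accounts for the lower shares, since fewer peaks can pass. The median offset was -21 bp within 500 bp and -2.5 bp for peaks that cover a TSS, both negative and inside its interval. Paralogue sets whose members differ numbered 6 to 11, compared with 8. The alternative without peaks nearer to another gene was added after the data were seen. No paired analysis was possible because a joined set of positions has no measurement for a single library. Leaving out each replicate could not be run either, and a stricter score could not be tried because the score is constant.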
